A study of Mus musculus with 6 samples.

Results

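The immediate early transcription factors are 10 genes, Egr1, Egr2, Egr3, Fos, Fosb, Jun, Junb, Atf3, Ier2 and Nr4a1, among 24421 genes measured by RNA sequencing. They were chosen by symbol, with the lower Egr1 and Fos of the knockout libraries already known from earlier results. Their differences between the labels, and their calls in the fits over all genes, are therefore given as a description and support nothing. All 10 passed the filter on low counts, which left 12753 genes. The cells were endothelial cells derived from mouse brain that had been grown in serum-containing medium and collected by flow sorting. Fli-1 knockout cells (3 libraries, called KO-labelled) were set against wild-type cells (3 libraries, WT-labelled) after 6 days together with a vascular niche. Treatment with 4-OHT, which activates tamoxifen-dependent recombinases, induced the deletion and is listed for both groups. The sources used here do not give the driver of the recombinase, the deleted part of the gene, or whether replicates were separate cultures or animals. The p-values thus measure the spread between these libraries, which may be technical.

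Immediate early genes are switched on within minutes of a stimulus such as serum, growth factors or mechanical stress, from transcription factors already present in the cell, and their transcripts are short-lived. Serum response factor with its ETS-family partners acts through the CArG box, and CREB and ATF proteins act through the cAMP response element (CRE). The products include the zinc finger Egr proteins, the Fos and Jun proteins that pair as AP-1, the repressor Atf3, the orphan nuclear receptor Nr4a1 and the small nuclear protein Ier2. In endothelium they are known as responders to VEGF, thrombin and flow, and they also respond to cell isolation.

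Totals were 17550185 to 21385951 counts per library, and the 8 endothelial markers summed to 11410 to 13710 CPM (CPM is a count scaled to a common library total after TMM normalisation). Fli1 itself was higher in the KO-labelled libraries, at 76.8, 111 and 77.4 CPM against 45.3, 59.6 and 45.8 CPM. The counts thus went against the labels, and whether the labels were exchanged was not tested. Fli1 counts can include exons outside the deleted part, and the share of these in the difference was not tested either. Every direction below is that of the labels. The markers highest in their lists were Cdh5 and Pecam1 (endothelial), Col1a1 and Col1a2 (fibroblast), Acta2 and Pdgfrb (mural), Laptm5 and Coro1a (blood cell), and Gfap and Mbp (glial). Libraries with the same replicate number resembled each other. Fibroblast and mural markers were high in replicate 2 of both groups, and the paired test called 3 of the 6 mural markers lower and 0 higher. It called 2 of the 8 endothelial markers higher (Emcn at 0.20 and Tek at 0.16, log2) and 0 lower, and of 5 tested fibroblast markers Dcn higher and Col1a1 lower. The 6 fibroblast markers summed to 821 and 1171 CPM there and to 115 to 407 CPM in the other 4 libraries. For the 6 mural markers the sums were 878 and 1204 CPM against 331 to 434 CPM. Of 8 blood cell markers, 4 (Spi1, Cd52, Tyrobp and Rac2) were at 0 in all libraries. The list summed to 117 to 237 CPM in the KO-labelled libraries and 85.7 to 197 CPM in the WT-labelled ones. Most of that sum was Laptm5, at 110 to 225 CPM and 79.4 to 187 CPM. The paired test called Laptm5 and Coro1a, the 2 tested, higher. Of all tested genes it called 4.01% lower and 4.81% higher. Ptprc and Itgam were near 0 and not tested. Ptprc had 5, 0 and 0 counts in the KO-labelled libraries against 7, 2 and 2, and Itgam 0, 0 and 0 against 2, 1 and 0. The part of these cells in the results below was not tested. Of 6 glial and neuronal markers 2, Aqp4 and Olig2, were at 0.

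The promoters of 7 of the members matched the RefSeq promoter table (GRCm38.p6), with 250 bases before and 50 bases after each start; Egr1, Egr3 and Ier2 had no entry. Short sites are shown because the motifs that define immediate early control can be compared in them directly. Capitals mark the CRE core TGACG, read on either strand (CGTCA), and in Egr2 the CArG box.

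Fos: ttccgcccagTGACGtaggaagtcc

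Fosb: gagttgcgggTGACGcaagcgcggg

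Junb: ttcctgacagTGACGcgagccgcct

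Atf3: aatagcattaCGTCAgcctgggatt

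Nr4a1: cctctccatgCGTCAcggagcgctt

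Egr2: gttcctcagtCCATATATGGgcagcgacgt

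These sites lie at chr12:85473814-85473838 (plus strand), chr7:19310091-19310115 (minus), chr8:84978840-84978864 (minus), chr1:191183326-191183350 (minus), chr15:101266796-101266820 (plus) and chr10:67537787-67537816 (plus). The core began 66 bases before the start of Fos, 60 before Fosb, 106 before Junb, 7 before Atf3 and 40 before Nr4a1. Fos had a further core 129 bases before its start, and Nr4a1 had others at 233, 213 and 69. TGACG was present on at least 1 strand in 6 of the 7 matched members and in 20.8% of the 32817 promoter windows of the table. The longer TGACGT, which contains TGACG, was present in Fos, Atf3 and Egr2, and in 7.51% of windows. The full palindrome TGACGTCA, which contains both, was in none of the 7 and in 1.79% of windows, and the AP-1 motif TGANTCA was in none and in 7.81%. A CArG box was found in Egr2 alone of the 7, against 1.63% of windows. The search ended 250 bases before each start, so a motif farther out would have been missed. The ETS motif CCGGAA was in Egr2 and Nr4a1, against 14.9%, and TATAAA in Fos and Junb, against 13.6%. Egr2 had 5 windows, so it had more sequence in which to match than the 6 members with 1 window. Jun was the matched member without TGACG. Only the stated motifs were searched, so near matches, such as tgacatca in the Jun sequence below, were not counted. The 100 bases before the start of Jun (chr4:95052223-95052322, minus strand) and those of Fos (chr12:85473790-85473889, plus strand) are shown for comparison.

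Jun: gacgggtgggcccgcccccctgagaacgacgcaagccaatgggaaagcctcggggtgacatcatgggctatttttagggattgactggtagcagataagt

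Fos: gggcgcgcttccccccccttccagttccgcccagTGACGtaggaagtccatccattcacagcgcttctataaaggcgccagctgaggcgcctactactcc

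Most members had compact gene models in GENCODE M21 on GRCm38. Of the 10, 9 had 4 exons or fewer in their main coding transcript, against 19.9% of the 11830 tested genes with a model. The median gene length was 5287 bases for the members and 24890 bases for those tested genes. The pentamer ATTTA, the core of AU-rich elements that shorten transcript life, was present in the 3' untranslated region of 9 members, with none in Ier2, and in 67.0% of 11657 tested genes. Its median density was 2.59 per kb in the members and 1.24 per kb in the tested genes. Fos carried 4 copies and was the one member with the nonamer TTATTTATT, which 7.40% of tested genes had. A stretch of 30 bases that holds 2 of the 4 pentamers, in capitals and overlapping, is shown; it does not hold the whole nonamer.

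Fos: aacgtttttattgtgttttcaATTTATTTA

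Ordered by level per kb of exon, Jun was the most abundant member, with a mean of 40.2 CPM per kb over the 6 libraries. Ier2 followed at 32.5, Junb at 27.3, Egr1 at 23.3, Atf3 at 15.2 and Fos at 6.96 CPM per kb. Nr4a1 was at 2.08, Fosb at 0.392, Egr2 at 0.332 and Egr3 at 0.287 CPM per kb. Each of the first 5 genes overlapped its neighbour in this order in the range of its libraries. Atf3, Fos, Nr4a1 and Fosb did not overlap their neighbours down to Fosb, and Fosb, Egr2 and Egr3 overlapped each other.

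**Figure D1:**
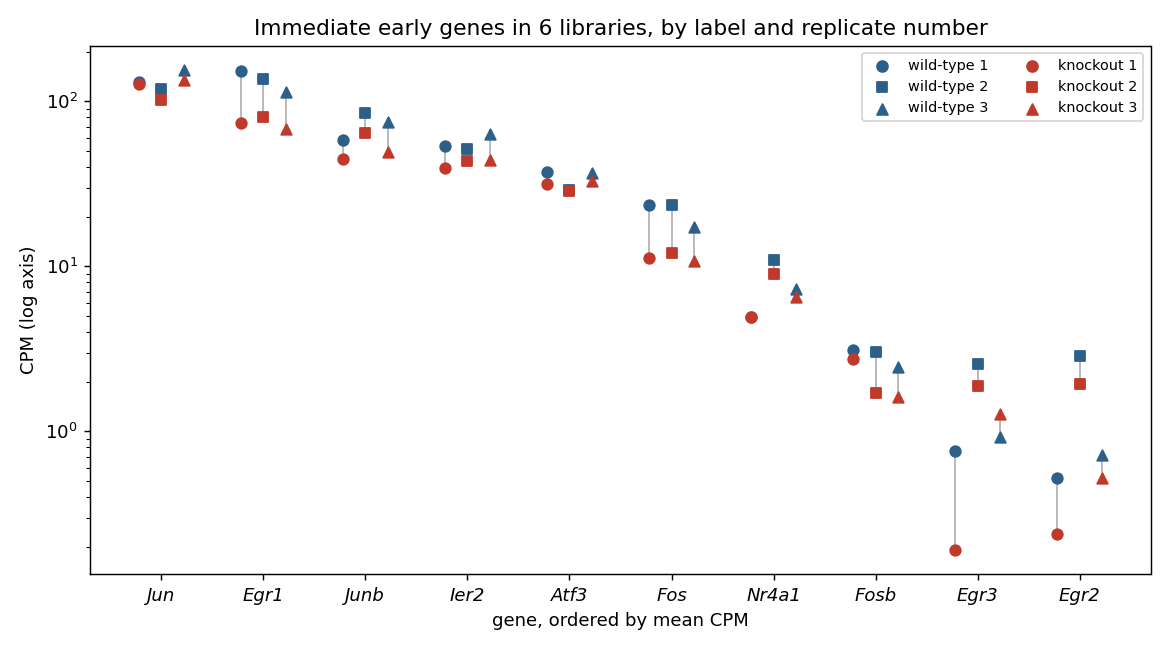
Level of each immediate early gene in CPM (log axis) in 6 libraries; blue is labelled wild-type, red labelled knockout, marker shapes give the replicate number, and a grey line joins a same-numbered pair. Red lies below blue in every pair other than pair 3 of Egr3, and in pair 1 of Nr4a1 the points, at 4.95 and 4.96 CPM, nearly coincide.

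Egr1 and Fos had the lowest ratios. Egr1, a zinc finger activator (GRCm38 chromosome 18, 34859823 to 34864984, plus strand), was at 74.0, 80.1 and 68.3 CPM in the KO-labelled libraries and 154, 137 and 114 CPM in the WT-labelled ones, in the order of replicate numbers 1 to 3. Every KO-labelled library lay below every WT-labelled library. The means were 74.2 ± 5.92 and 135 ± 19.9 CPM (SD, n = 3 each), 45.1% lower, and the log2 fold change was -0.86 ± 0.12 (SE). Fos, the AP-1 subunit whose product needs a Jun partner (chromosome 12, 85473890 to 85477273, plus strand), was at 11.2, 12.0 and 10.7 CPM against 23.4, 23.5 and 17.4 CPM. Again the groups did not overlap. The means were 11.3 ± 0.64 and 21.5 ± 3.47 CPM (SD, n = 3 each), 47.4% lower, with a log2 fold change of -0.93 ± 0.13 (SE). Egr1 and Fos kept a near-constant ratio, with 5.83 to 6.69 Egr1 reads for each Fos read in the 6 libraries, and for both genes the difference was widest in pair 1 and narrowest in pair 3.

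Ier2, Junb and Jun had smaller differences. Ier2 (chromosome 8, 84661331 to 84662852, minus strand) was at 39.7, 43.5 and 43.9 CPM in the KO-labelled libraries and 53.9, 51.8 and 63.8 CPM in the WT-labelled ones. It was the third member whose groups did not overlap, at a log2 fold change of -0.41 ± 0.09 (SE). Junb, a Jun protein that often restrains Jun (chromosome 8, 84974484 to 84978718, minus strand), was at 44.9, 64.4 and 49.3 CPM against 58.5, 85.6 and 74.9 CPM, at -0.47 ± 0.19 (SE). Its groups overlapped because replicate 2 labelled knockout lay above replicate 1 labelled wild-type, although each pair differed in the same direction. Junb shares exonic sequence with Prdx2 on the opposite strand, and since the strand setting is not given its counts are uncertain; Prdx2 itself had a log2 fold change of 0.08. Jun (chromosome 4, 95049034 to 95052222, minus strand) was at 127, 102 and 134 CPM against 131, 120 and 155 CPM, at -0.16 ± 0.13 (SE), so its groups overlapped widely. Without KO replicate 2 or WT replicate 3 the log2 fold change of Jun was -0.05, and over all single libraries left out it was between -0.25 and -0.05. It too overlaps an antisense gene, Junos, which has no row in the table.

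Atf3 and Nr4a1 also had small differences. Atf3, a repressor of the CREB and ATF family induced by stress, was at 31.8, 28.7 and 33.1 CPM in the KO-labelled libraries and 37.3, 29.0 and 36.7 CPM in the WT-labelled ones, a log2 fold change of -0.14 ± 0.11 (SE). In pair 2 it was nearly equal. With 1 library left out, the log2 fold change of Atf3 was between -0.25 (without WT replicate 2) and -0.07 (without WT replicate 1), and it was -0.08 without KO replicate 2 and -0.09 without WT replicate 3. Atf3 lies at chromosome 1, 191170296 to 191218039 (minus strand), and Nr4a1 at chromosome 15, 101254269 to 101274795 (plus). Nr4a1 was at 4.95, 9.04 and 6.49 CPM against 4.96, 11.0 and 7.29 CPM, at -0.18 ± 0.34 (SE), a difference smaller than the one between replicate numbers.

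Fosb, Egr2 and Egr3 rested on few reads. Fosb had 58, 32 and 28 counts in the KO-labelled libraries and 65, 64 and 48 in the WT-labelled ones, with a log2 fold change of -0.49 ± 0.27 (SE), or -0.78 without KO replicate 1. For Egr2, a zinc finger factor close to Egr1, the counts were 5, 36 and 9 against 11, 60 and 14. Both groups were high in replicate 2, and the log2 fold change of -0.61 had an SE of 0.94. Egr3, another Egr factor induced by growth factors, had 4, 35 and 22 counts against 16, 54 and 18. The 3 genes lie at chromosome 7, 19302696 to 19310051 (minus strand), chromosome 10, 67535475 to 67542188 (plus) and chromosome 14, 70077203 to 70082614 (plus). Egr3 was the one member whose pairs disagreed: the log2 difference was -1.57 in pair 1, -0.44 in pair 2 and 0.43 in pair 3. No direction could be resolved for Egr3 at this depth.

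**Figure D2:**
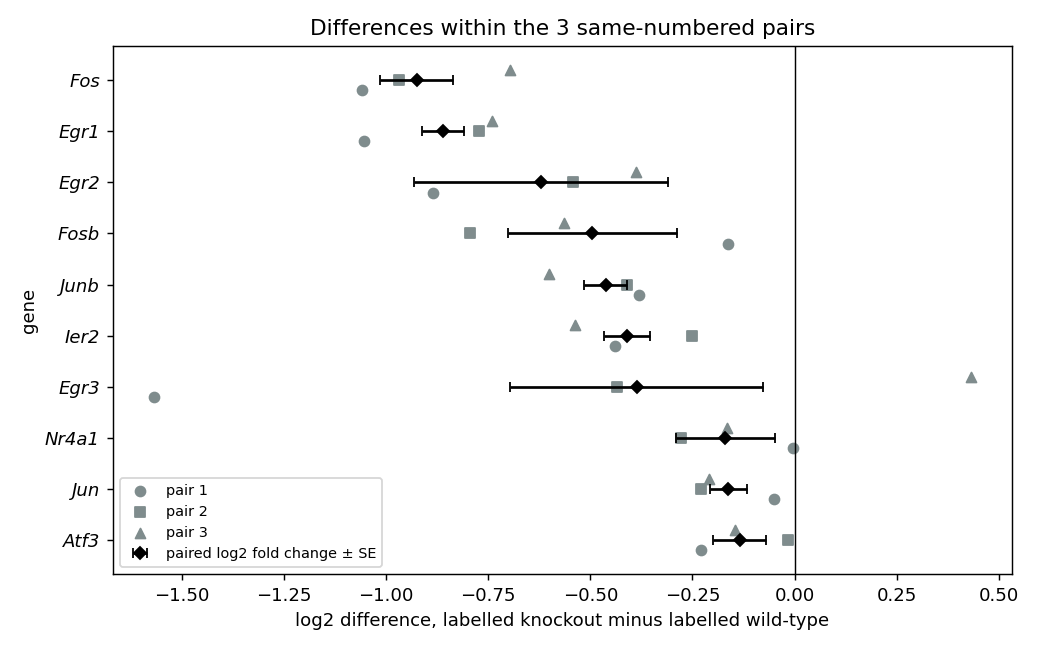
Log2 difference of each immediate early gene, labelled knockout minus labelled wild-type; grey markers are the 3 same-numbered pairs and black diamonds the paired log2 fold change with its SE. Fos and Egr1 lie farthest left with narrow errors, at -0.93 ± 0.089 and -0.86 ± 0.052, and the errors of Egr2 and Egr3 are the widest.

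Over the 10 members together the summed level was 336, 345 and 349 CPM in the KO-labelled libraries and 467, 466 and 474 CPM in the WT-labelled ones, and Jun and Egr1 made up most of it. The median log2 fold change of the members was -0.44, beside -0.0038 over all tested genes. In the 3 pairs the medians of the members were -0.41, -0.42 and -0.46. All 3 pairs were lower for 9 members, where 20.2% of all tested genes were. The groups did not overlap, with the KO-labelled libraries lower, for 3 members and for 4.96% of tested genes. Since the members were chosen on this contrast, nothing further is read from these shares.

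The calls of the members are listed here as a description, because the choice of the list already rested on the lower Egr1 and Fos of this contrast; nothing is read from them against the shares of all genes. In the edgeR comparison of the 2 groups, 0 members were called lower and 0 higher at a false discovery rate of 0.05, where 0.00784% and 0% of all tested genes were. Of the 10, 4 had an unadjusted p under 0.05 in that edgeR test, as did 611 of all 12753 tested genes. DESeq2 called Egr1 and Fos lower, where it called 0.0608% of its genes lower. In the paired test, an edgeR fit with a term for replicate number, there were 5 members called lower (Egr1, Fos, Jun, Junb and Ier2) and 0 higher, where 4.01% of all tested genes were lower and 4.81% higher (511 and 613 genes; 734 and 471 when scaled by library size alone). The paired log2 fold changes were -0.86 ± 0.052 for Egr1, -0.93 ± 0.089 for Fos, -0.46 ± 0.053 for Junb, -0.41 ± 0.057 for Ier2 and -0.16 ± 0.045 for Jun (SE). DESeq2 with the block called 4 of these 5, all but Jun, where it called 0.944% of its genes lower. Jun was also not called without pair 2 or without pair 3.

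Some members differed more between replicate numbers than between labels. Within the WT-labelled libraries, Egr2 was 4.60 times as high in replicate 2 as in the mean of replicates 1 and 3, and within the KO-labelled ones 5.07 times. Egr3 was 3.05 and 2.55 times as high, Nr4a1 1.79 and 1.58 times and Junb 1.28 and 1.37 times. Jun went the other way at 0.836 and 0.783, as did Atf3 at 0.784 and 0.883, while Egr1 stayed at 1.02 and 1.13 and Fos at 1.15 and 1.09. For Egr1 and Fos the labels differed more, with WT-labelled means 1.82 and 1.9 times the KO-labelled ones. For Junb that ratio was 1.38, close to its replicate 2 values. The highest Junb library was 1.43 times the lowest within the KO-labelled group and 1.46 times within the WT-labelled group. The fibroblast marker sum was 4.07 and 3.38 times as high in replicate 2, and the mural sum 3.34 and 2.30 times. The part of these cells' RNA in the levels of Egr2, Egr3, Nr4a1 and Junb was not tested; fewer cells of a type and less RNA per cell cannot be told apart in bulk samples. Without the libraries of replicate 2, the paired log2 fold change was -0.90 for Fos and -0.91 for Egr1. Leaving them out does not remove the marker differences within the other pairs. The fibroblast sum was 115 CPM labelled knockout against 168 labelled wild-type in pair 1, and 371 against 407 in pair 3. The mural sum was 331 against 366 CPM in pair 1, and 434 against 355 in pair 3. The part of these cells' RNA in Egr1 and Fos was not tested either.

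**Figure D3:**
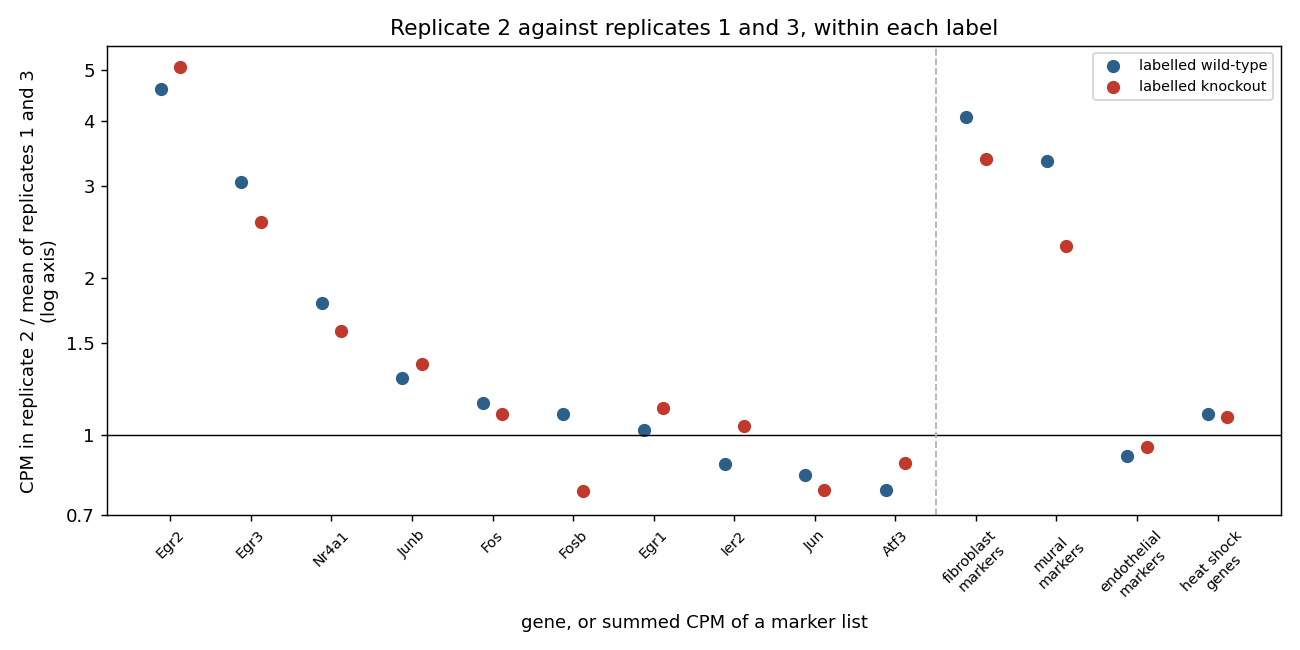
Level in replicate 2 divided by the mean of replicates 1 and 3 (log axis), within the WT-labelled (blue) and KO-labelled (red) libraries, for each immediate early gene and for summed marker lists right of the dashed line. Egr2 and Egr3 stand with the fibroblast and mural sums, Egr1 and Fos stay near 1, and the endothelial sum is at 0.908 and 0.947.

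AP-1 subunits were compared per length. Fosl2, a Fos protein with slower kinetics, made up 73.7% to 76.2% of the summed Fos family level in the KO-labelled libraries and 65.7% to 68.2% in the WT-labelled ones. The larger share was not a higher level of Fosl2. Its level was 26.2, 24.9 and 25.8 CPM per kb in the KO-labelled libraries against 27.8, 28.4 and 25.4. Fos itself made up 13.0% to 15.6% and 19.1% to 24.0%. The family sum was 34.5, 32.7 and 35.0 CPM per kb against 41.8, 41.6 and 38.8, a gap without overlap that was proportionally smaller than that of Fos itself. In the Jun family, Jund, the constitutive member, made up 45.2% to 51.4% in all libraries. The Jun family sums of 118, 116 and 131 against 126, 136 and 166 CPM per kb overlapped. Egr1 made up 94.8% to 99.3% of the Egr family, and Egr4 had 0 reads. Nr4a1 made up 73.1% to 85.7% of the Nr4a family.

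**Figure D4:**
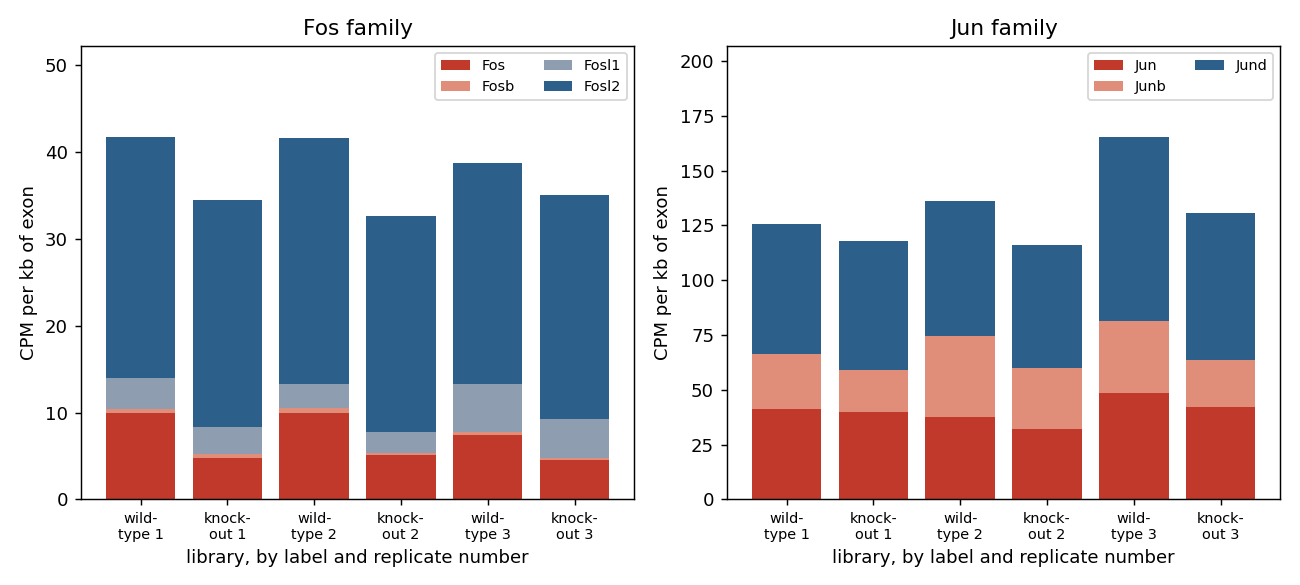
Summed level per kb of exon of the Fos family (left) and the Jun family (right) in each library, with same-numbered libraries side by side; colours are the family members. The Fos segment is shorter in each KO-labelled library than in its pair, and Fosl2 is the tallest segment of the Fos family in every library.

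Other immediate early genes were taken from lists written with earlier results of these data known. Of 17 tested transcription factors outside the 10 members, the paired test called 2 lower, 0 higher and left 15 uncalled, with a median log2 fold change of -0.08. Ets2, an ETS factor and target of growth signalling, was between 195 and 203 CPM in the WT-labelled libraries and between 161 and 174 CPM in the KO-labelled ones, and fell by 0.24 ± 0.041 on the log2 scale (SE, adjusted p = 3.77e-05, edgeR). Jund fell by 0.16 on the log2 scale (edgeR adjusted p = 0.0386). The call was lost with DESeq2 (-0.16, adjusted p = 0.372), and in edgeR without pair 2 (-0.18, adjusted p = 0.136) and without pair 3 (-0.07, adjusted p = 0.549). Klf6, a zinc finger factor, and Myc had paired log2 fold changes of -0.11 and 0.13, with edgeR adjusted p values of 0.104 and 0.107. Srf, the serum response factor, was at 0.01, and Klf2 and Klf4, which respond to flow, at -0.06 and -0.22.

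Among 25 immediate early genes that do not encode transcription factors, the paired test called 6 lower and 0 higher, with a median of -0.08. Over all tested genes the paired test called 4.01% lower and 4.81% higher. Ptgs2, the inducible cyclooxygenase, was at 230, 215 and 413 CPM in the KO-labelled libraries and 407, 373 and 605 CPM in the WT-labelled ones, and fell by 0.72 ± 0.046 on the log2 scale (SE, edgeR adjusted p = 3.37e-14). Its groups overlapped through replicate 3. Btg2, an antiproliferative gene, fell by 0.51 ± 0.047, with 129 to 146 CPM in WT-labelled and 92.9 to 101 CPM in KO-labelled libraries (edgeR adjusted p = 7.15e-11). Zfp36, whose protein binds AU-rich elements and speeds the decay of transcripts such as Fos, fell by 0.47 ± 0.079, with 20.8 to 27.8 CPM in WT-labelled and 15.5 to 20.7 CPM in KO-labelled libraries (edgeR adjusted p = 3.26e-05). Dusp1, a phosphatase that inactivates MAP kinases, fell by 0.28 ± 0.041 (edgeR adjusted p = 2.77e-06). The other 2 were Plk2 and Ier5, at -0.24 and -0.16. Cyr61 and Ctgf, which encode matrix-associated proteins, were at 0.05 each and not called. In the comparison without the block, 0 genes of either list were called by edgeR. At an unadjusted edgeR p under 0.05 there were 1 of 17 and 2 of 25 genes, beside 611 of all 12753 tested genes. DESeq2 called 1 gene of each list lower, Ets2 and Btg2. Without pair 1 the paired test called 10 of the 25 lower, and without pair 2 it called 5.

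Genes known to act upstream of immediate early transcription, partners and heat shock genes were set beside all tested genes. Of all tested genes, the paired test called 4.01% lower and 4.81% higher. At these shares, lists this short can hold 0 called genes without differing from all genes. Of 21 kinases and DNA-binding factors upstream, which include the ERK kinases, their RSK targets, the ETS partners of serum response factor and CREB, the paired test called 0 in either direction, with a median of 0.02. Creb1 and the kinase Braf had the smallest p, at paired log2 fold changes of -0.12 and -0.14 with edgeR adjusted p values of 0.16 and 0.163; Map2k2 was at 0.10 and Elk3 at 0.07. These are transcript levels, and kinase activity was not measured. Of 13 tested corepressors and dimer partners, 0 were called, with a median of -0.10. Maf was at -0.93 with an edgeR adjusted p of 0.0572, on 0.464 to 1.61 CPM, Atf7 at -0.12, Mafg at -0.17 and Rxra at -0.11; Nab2, an Egr corepressor and itself an Egr target, was at -0.10. Of 12 heat shock genes, which cell handling also induces, 0 were called, with a median of 0.02. Hspe1 was at 0.17 (edgeR adjusted p = 0.0667), Hspb1 at 0.08 and Hsp90aa1 and Hspd1 at 0.03. The summed heat shock level was 1986 to 2221 CPM in the KO-labelled libraries and 1969 to 2214 CPM in the WT-labelled ones. Its largest part was Hspa8, at 814 to 1108 CPM, while Hspa1a and Hspa1b had 5 to 15 and 32 to 46 counts per library. An effect of handling was not tested. Without the block, the upstream, partner and heat shock lists had 0, 1 and 0 genes at an unadjusted edgeR p under 0.05. Over all 12753 tested genes there were 611. DESeq2 without the block called 0 of each list.

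**Figure D5:**
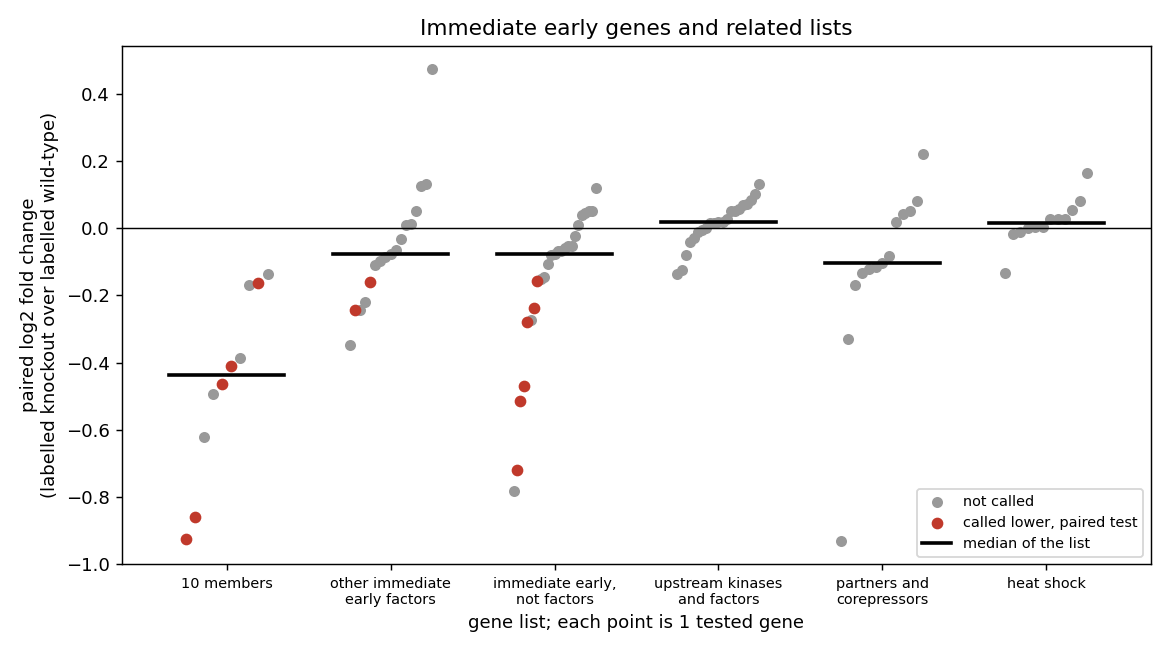
Paired log2 fold change of every tested gene of 6 lists, labelled knockout over labelled wild-type; red points were called lower by the paired edgeR test, and black bars are list medians. The median of the 10 members is -0.44, those of the other 5 lists lie between -0.10 and 0.02, and no point above 0 is called.

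The genes most like Egr1 were sought among 8980 tested genes with a mean of at least 10 CPM, by the root mean square distance between their 3 within-pair log2 differences and those of Egr1. Ptgs2 was closest, at 0.17 log2 units, followed by the matrix genes Col5a3 at 0.19 and Lox at 0.25, then Cyp4b1 and Vcan, both at 0.31. For Fos, Ptgs2, Col5a3, Lox and Vcan again came first, at 0.19 to 0.33, and Serpinb9b was the fifth at 0.36. Col5a3, Lox and Vcan were highest in replicate 2 of both groups, at 25.7, 111 and 18.6 CPM labelled knockout and 35.2, 158 and 30.8 CPM labelled wild-type, where the fibroblast markers were highest too. Egr1 and Fos did not share that pattern across replicate numbers, so the likeness covers the differences within pairs and not the levels.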

How the data were processed

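RNA was sequenced from 6 mouse libraries. The deposited table holds raw read counts per gene symbol, not normalised by the authors; per the submitters' processing notes, FastQC 0.11.8, Trim Galore 0.6.4, STAR 2.6.1d and Subread 1.6.4 with featureCounts were used on mm10 or GRCm38. The sources used here give no strand setting, annotation or rule for multi-mapping reads, and the labels name both a stranded and an unstranded kit.

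Counts were fitted in R 4.3.3 with edgeR 4.0.16 (filterByExpr, TMM, robust quasi-likelihood F test, Benjamini-Hochberg adjustment over 12753 genes, false discovery rate 0.05), without and with the replicate number as a block. Adjusted p values in the text come from these fits or from DESeq2 1.42.0, as named. SE is the log2 fold change divided by the square root of F. Deviations from group means correlated at 0.776, 0.857 and 0.652 between same-numbered libraries, so the numbers were taken as pairs on the data, not the labels. With the block 2 residual degrees of freedom remained (4 without), so paired SE and p rest on a spread shared across genes. Chi-square per degree of freedom between libraries was 5.44 or more, so none were duplicates. Within-pair differences use log2 CPM with a prior count of 2. The edgeR and DESeq2 fits, each without and with the block, were tested on simulated data. The other settings were not. Levels per kb divide CPM by the union of GENCODE M21 exons; motif searches covered both strands.

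Members and lists were chosen with earlier results of these data known. Named genes were the members, the 4 genes of each list with the smallest paired p, the 2 highest of each marker list and the 5 nearest to Egr1 and to Fos; others were named after their values were seen.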

Additional observations from a re-analysis of the deposited data

How the results depend on the processing

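The unblocked edgeR comparison called 0 genes higher and 1 lower; DESeq2 called 12 and 7, and the replicate block 613 and 511. Members called lower numbered 0, against 2 with DESeq2 and 5 with the replicate block; for the other transcription factors the counts were 1 and 2, and for the other immediate early genes 1 and 6. Leaving out 1 library gave 0 to 1 genes lower. With the replicate block, DESeq2 gave 262 genes higher and 111 lower, and 1 other transcription factor lower; library size alone gave 471 genes higher and 734 lower, which turned the balance of the calls, and 2 partners lower. Leaving out a pair gave 339 to 603 genes higher, 205 to 600 lower, 1 to 2 other transcription factors, 5 to 10 other immediate early genes and 0 to 2 partners lower. Members called in the paired test numbered 4 or 5 under every paired alternative run, and Egr1, Fos, Junb and Ier2 were called in each. All alternatives reuse the libraries and the contrast on which the members were chosen, so this persistence is a description and supports nothing. The cause of the shifts between settings was not tested. DESeq2 size factors in edgeR and the absence of a filter, both with the block, were chosen after seeing the data.

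In the unblocked fit, the direction turned on leaving out 1 library for Egr2 (-1.85 to 0.52), Egr3 (-0.98 to 0.38), Nr4a1 (-0.44 to 0.15), Jund (-0.27 to 0.0068), Hspb1 (-0.017 to 0.19), Hsp90aa1 (-0.020 to 0.066) and Hspd1 (-0.042 to 0.084). Egr2, Egr3 and Nr4a1 were above 0 without WT replicate 2, Egr3 (0.15) and Nr4a1 (0.0039) also without KO replicate 1, and Jund without WT replicate 3. Hspb1 and Hspd1 (-0.0074) were below 0 without WT replicate 2, and Hsp90aa1 and Hspd1 without KO replicate 3. Leaving out pair 3 turned Hspd1 in the paired fit (-0.027 to 0.10). Egr1 and Fos were lower under every alternative run, but their lower levels in these libraries were known when the members were chosen. With 3 counts as the floor, levels under 0.14 to 0.171 CPM could not be told from 0. Egr2 and Egr3 stayed above this floor but came near it in KO replicate 1, at 5 and 4 counts, which limits both genes. The nearest genes to Egr1 and to Fos were the same 5 with a prior count of 0.5.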
